A study of Mus musculus with 12 samples.

Results

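The Prame-like and oogenesin genes of the mouse were followed in 2-cell embryos, when transcription from the embryo's own genome gets under way. Members were all genes whose symbol begins with Pramef, Pramel or Oog followed by a digit. There were 50 such genes of 20244 listed in either of 2 expression tables. The knockdown table held 49 of them among 17866 genes, the immunoprecipitation table held 49 among 19390, and 48 were in both. Pramel49 was listed only in the first and Pramel36 only in the second. No current symbol began with Pramef, so the copies once called Pramef6, Pramef8, Pramef12 and Pramef25 appear here as Pramel11, Pramel12, Pramel13 and Pramel16.

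Each of the 4 groups had 2 libraries, named replicate A and replicate B. Control embryos, labelled wild type (WT), received the enzyme RfxCas13d as mRNA without a guide RNA. Knockdown embryos, labelled Eif1ad3_KD, received guide RNA against Eif1ad3 and its variants together with that mRNA, both at the 1-cell stage and in CF1 embryos, according to the design text. The samples' protocol names instead antisense morpholino oligos delivered to oocytes with Cas13d protein, so the reagent is not settled by the labels. For the immunoprecipitation, zygotes were given mRNA that encodes Eif1ad3 with a His tag, made in vitro and used at 200 ng/uL (label Eif1ad3_OE), and lysates of 200 cells per replicate were passed over beads with an anti-His antibody (His) or with control IgG (IgG). The tagged protein was therefore made from injected mRNA and not from the embryo's own gene, both bead groups came from injected embryos, and embryos were pooled. Nothing in the labels says whether A and B came from separate collections of embryos, so p-values measure the spread between these libraries, which may be technical. In bulk samples a lower share of cells with a transcript and less of it per cell cannot be told apart.

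The Prame family encodes leucine-rich repeat proteins, some of which act as substrate receptors of cullin 2 ubiquitin ligases. It has expanded in rodents into tandem clusters of similar copies. Its members are active in germ cells and early embryos. The oogenesins Oog1 to Oog4 are a branch of it described in oocytes and early embryos, and the Oog1 protein was described as a partner of Ralgds, a regulator of the small GTPase Ral. Other copies switch on at the 2-cell stage, Pramel6 and Pramel7 are known from the inner cell mass and embryonic stem cells, and Pramel1 and Pramel3 from the testis.

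In the RefSeq gene table of build GRCm38.p6, 28 of the 50 members lay on chromosome 4, 17 on chromosome 5, 2 on chromosome 2, 2 on chromosome 12 and 1 on chromosome X. A window before the annotated start was present in RefSeq's promoter table for 40 members. When the 250 bases before the start were compared in all pairs and joined at 70% identity, 10 members fell into 1 group: Oog1, Oog2, Oog3, Oog4, Pramel23, Pramel25, Pramel26, Pramel27, Pramel29 and Pramel32. They are called oogenesin-type below. Of these, 9 lay on chromosome 4 and Oog1 on chromosome 12. Identity within the group ran from 57.2% to 92.4% with a median of 71.6%, and the other members' windows had a median identity of 47.6% and a highest of 58.8% to any of its windows. The group kept its 10 members when windows were joined at 65% identity, and at 75% it split into 3 (Oog1, Pramel25 and Pramel29) and 7.

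The 150 bases before the annotated start are shown for the oogenesin-type genes because most of the expressed ones were high in 1 of the knockdown libraries. Pramel11, Pramel24 and Pramel16 are shown as copies outside the group that the 2-cell embryo also expressed. Sequences run 5′ to 3′ on the gene's strand, from RefSeq GRCm38.p6, and capitals mark AAATCTGAA, GGGTGTGG and TATATA.
Oog1 (chr12:87602515-87602664, plus strand): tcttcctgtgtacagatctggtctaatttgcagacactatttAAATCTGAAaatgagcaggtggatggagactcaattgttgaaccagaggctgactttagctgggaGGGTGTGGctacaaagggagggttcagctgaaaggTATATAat
Oog2 (chr4:144190567-144190716, plus strand): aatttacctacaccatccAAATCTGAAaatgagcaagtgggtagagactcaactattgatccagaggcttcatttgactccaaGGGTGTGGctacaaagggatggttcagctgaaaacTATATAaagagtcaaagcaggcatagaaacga
Oog3 (chr4:144162652-144162801, minus strand): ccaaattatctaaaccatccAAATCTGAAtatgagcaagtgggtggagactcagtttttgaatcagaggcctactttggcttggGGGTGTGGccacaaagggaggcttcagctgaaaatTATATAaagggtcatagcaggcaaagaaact
Oog4 (chr4:143450325-143450474, minus strand): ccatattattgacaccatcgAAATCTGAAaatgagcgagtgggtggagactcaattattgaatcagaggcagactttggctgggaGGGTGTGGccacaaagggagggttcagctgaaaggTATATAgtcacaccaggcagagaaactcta
Pramel23 (chr4:143702712-143702861, minus strand): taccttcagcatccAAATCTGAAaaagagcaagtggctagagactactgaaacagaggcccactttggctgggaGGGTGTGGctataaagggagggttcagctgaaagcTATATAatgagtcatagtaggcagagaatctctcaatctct
Pramel25 (chr4:143789184-143789333, plus strand): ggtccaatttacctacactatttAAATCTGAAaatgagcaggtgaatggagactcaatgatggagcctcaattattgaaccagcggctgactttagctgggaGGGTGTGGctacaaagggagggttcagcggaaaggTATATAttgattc
Pramel26 (chr4:143816094-143816243, minus strand): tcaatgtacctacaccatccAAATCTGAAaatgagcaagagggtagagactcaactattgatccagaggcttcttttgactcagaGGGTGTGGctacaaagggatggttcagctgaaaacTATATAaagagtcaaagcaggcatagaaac
Pramel27 (chr4:143846347-143846496, plus strand): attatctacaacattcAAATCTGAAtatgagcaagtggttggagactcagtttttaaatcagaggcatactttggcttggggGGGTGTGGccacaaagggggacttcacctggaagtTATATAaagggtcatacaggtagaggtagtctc
Pramel29 (chr4:144213018-144213167, minus strand): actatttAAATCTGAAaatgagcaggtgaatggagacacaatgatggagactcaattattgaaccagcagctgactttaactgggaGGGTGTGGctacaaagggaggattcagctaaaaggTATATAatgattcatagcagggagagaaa
Pramel32 (chr4:88634187-88634336, minus strand): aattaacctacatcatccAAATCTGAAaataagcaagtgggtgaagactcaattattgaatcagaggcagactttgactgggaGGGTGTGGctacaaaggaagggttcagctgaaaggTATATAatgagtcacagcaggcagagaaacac
Pramel11 (chr4:143900381-143900530, minus strand): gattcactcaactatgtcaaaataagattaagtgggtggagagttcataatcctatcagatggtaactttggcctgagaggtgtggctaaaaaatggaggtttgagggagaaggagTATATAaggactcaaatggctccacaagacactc
Pramel24 (chr4:143719301-143719450, plus strand): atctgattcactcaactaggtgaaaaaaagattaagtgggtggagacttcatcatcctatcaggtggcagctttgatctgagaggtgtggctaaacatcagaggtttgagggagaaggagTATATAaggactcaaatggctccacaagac
Pramel16 (chr4:143951017-143951166, minus strand): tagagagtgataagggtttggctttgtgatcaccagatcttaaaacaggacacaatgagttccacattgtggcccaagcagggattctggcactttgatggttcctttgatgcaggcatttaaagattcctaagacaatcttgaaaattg

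All 10 oogenesin-type windows carried AAATCTGAA, at 108 to 143 bases before the annotated start, then GGGTGTGG at 43 to 76 bases, then TATATA at 8 to 41 bases. GGGTGTGG is a CACCC-type box read on the other strand, a letter pattern known from Krüppel-like factor sites, and TATATA resembles a TATA box. Counting both strands of the 250-base windows, AAATCTGAA was in 10 of the 10 and in 0 of the 30 other members with a window, and in 0.374% of all 32851 windows in the table. GGGTGTGG was in 5 of the 30 others and 3.2% of all windows, and TATATA in 9 of the 30 and 5.25%. The 5 others with GGGTGTGG (Pramel37, Pramel39, Pramel43, Pramel46 and Pramel49) are chromosome 5 copies that also had TATATA and were near 0 CPM here. AAATCTGAA and GGGTGTGG were picked after the windows had been seen, so their counts describe the alignment.

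Of the patterns chosen by name, TATAAA, which can overlap TATATA, was in 5 of 10 oogenesin-type windows, 8 of 30 others and 12.4% of all. The E-box CAGCTG was in 8 of 10, 1 of 30 and 13%. TAATCC, the core bound by Obox-type homeodomains, was in 0 of 10 and in 4 of 30 (Pramel4, Pramel5, Pramel11 and Pramel17), against 6.25% of all windows. The DUX motif was in 0 of the 40 windows and in 0.0304% of all. A match is a description of letters, and its absence says only that the letters are not in this window. In 7 windows, those of Pramel7, Pramel14, Pramel15, Pramel19, Pramel21, Pramel30 and Pramel45, the annotated start fell on the letters ATG. It may be a start codon there, and the transcription start may lie elsewhere.

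**Figure D1:**
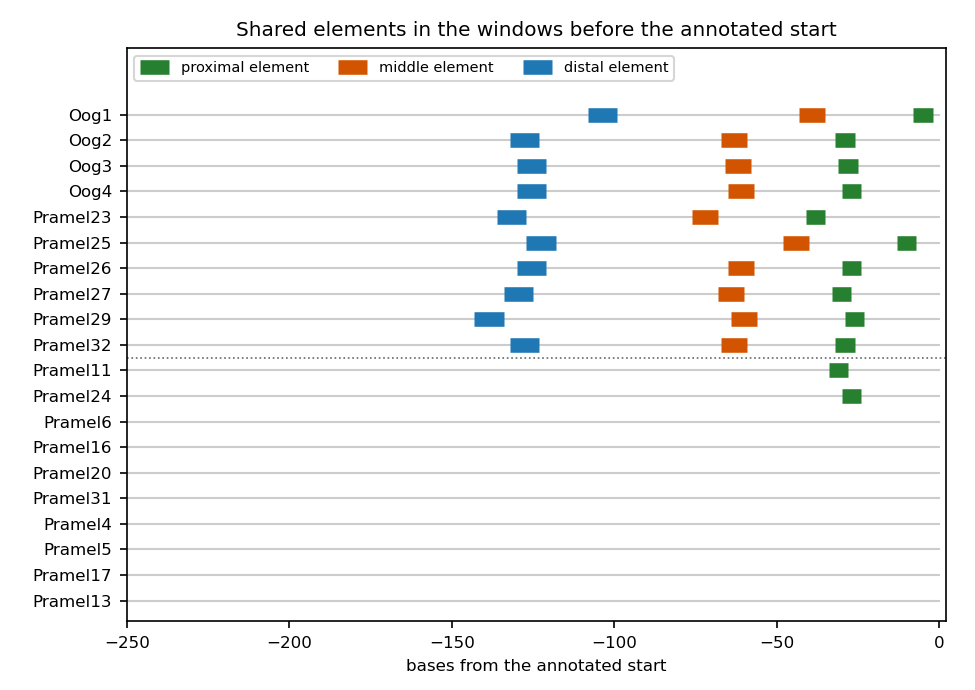
Positions of 3 short elements on the gene's strand (coloured bars) in the 250 bases before the annotated start; the x axis is the distance from that start in bases and each row is 1 gene, with the 10 oogenesin-type genes above the dotted line and 10 other expressed members below it. The distal element is AAATCTGAA (108 to 143 bases before the start), the middle one GGGTGTGG (43 to 76) and the proximal one TATATA (8 to 41): all 10 oogenesin-type genes hold them in this order, and of the others drawn, Pramel11 and Pramel24 hold the proximal one. Only exact matches are drawn, so near ones, such as AGGTGTGG in Pramel11 and Pramel24, do not show.

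The deposited values are CPM, counts per gene scaled to a common library total. They are not divided by gene length, so they compare libraries and not the number of molecules of different genes. How reads that fit several copies were counted is not given in the sources used here, so every value of these similar genes is uncertain between close copies. No pair of well-covered members had identical reads in all libraries, a check that cannot show reads shared in part. Library totals ran from 18173916 to 27902514 reads in the knockdown table and from 4678563 to 8364126 in the immunoprecipitation table. A level of 3 reads, the most that a count of 0 allows, equals 0.108 to 0.165 CPM in the first and 0.359 to 0.641 CPM in the second, for counting error only. Replicates correlated across genes at 0.97 in control, 0.93 in knockdown, 0.91 in His and 0.56 in IgG, so the IgG libraries stand apart from each other. The targeted gene Eif1ad3 was at 839 and 663 CPM in control and at 277 and 377 CPM in Knockdown A and B. Of 16 markers of the 2-cell stage, summed levels were 7442 and 6330 CPM in control and 4638 and 4525 CPM in knockdown, with 2 markers at 0 in Control A and 2 in Knockdown B. Markers of granulosa or cumulus cells summed to at most 13.9 CPM in any library.

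In control embryos the family took 18590 CPM in Control A and 13542 CPM in Control B. Oog3 alone made up 51.5% and 43.8% of these reads. Together with Pramel25 and Pramel29, 2 oogenesin-type genes, it reached 64.8% and 56.3%. At 1 CPM or more, 40 members were present in Control A and 39 in Control B. Of the 17 chromosome 5 copies, 16 were in this table, and they summed to 167 and 223 CPM, with 8 and 7 of them at 1 CPM or more. The reads of this family thus lay mainly in chromosome 4 copies. Smaller parts lay in Oog1 and Pramel51 on chromosome 12 and in Pramel6 and Pramel7 on chromosome 2.

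In knockdown embryos the family summed to 21543 CPM in replicate A and 12542 CPM in replicate B, on both sides of the control libraries. The test compared log2(CPM + 1) between 2 knockdown and 2 control libraries for genes that reached 1 CPM in 2 or more of them. Fold changes below are on that scale, on which the change of a low gene looks smaller than it is. Of the 49 members 41 were tested, and 0 passed an adjusted p of 0.05 in limma with Benjamini-Hochberg adjustment over 13332 genes, where the share called was 0%. At an unadjusted p under 0.05 there were 9 members, beside 726 genes in all (5.45%). DESeq2 called 0 members and 15 genes, and edgeR 0 and 0. The members' median log2 fold change was -0.11, against 0.02 over all genes tested. Both knockdown libraries lay above both controls in 7 members and below both in 11, against 18.1% and 18.4% of all genes tested. The 8 untested members (Pramel27, Pramel37, Pramel39, Pramel40, Pramel43, Pramel45, Pramel46 and Pramel49) were below 3 CPM everywhere, and Pramel44 passed the filter only through knockdown libraries.

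The oocyte-expressed copies were the list Oog1, Oog2, Oog3, Oog4 and Pramel13. Oog3 was at 9583 and 5934 CPM in control and at 6788 and 4914 CPM in Knockdown A and B. Its groups overlapped (log2 fold change -0.38, SE 0.36, limma adjusted p = 0.901). Oog4 was at 155 and 179 CPM in control and at 496 and 232 CPM in knockdown. Both knockdown libraries were above both controls, with replicate A more than replicate B (1.02, SE 0.41, limma adjusted p = 0.859). Oog1 had 463 and 370 CPM in control against 839 and 509 CPM in knockdown, again without overlap (0.66, SE 0.36, limma adjusted p = 0.859). Oog2 had 229 and 178 CPM in control but 535 CPM in knockdown replicate A and 152 CPM in replicate B, one above and one below the controls. Pramel13, known from germ cells, had 28.6 and 35.7 CPM in control and 54.6 and 33.1 CPM in knockdown. None of the 5 passed the test, and their median log2 fold change was 0.50. It was 0.05 without Knockdown A and 1.02 without Knockdown B.

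Of the 6 oogenesin-type copies outside that list, 4 were above both controls in Knockdown A: Pramel25, Pramel26, Pramel29 and Pramel32. Pramel32 was at 100.2 and 94.1 CPM in control and at 508 and 136 CPM in knockdown, both above the controls. Its log2 fold change was 1.43 (SE 0.57), the largest of the group (limma adjusted p = 0.859). Pramel25 had 1253 and 853 CPM in control and 3258 and 1065 CPM in knockdown, and Pramel29 had 1211 and 842 CPM against 3026 and 1177 CPM. In both genes replicate A was above both controls, and replicate B lay between them. Pramel26 had 370 and 239.6 CPM in control, 969.9 CPM in knockdown replicate A and 208 CPM in replicate B. The other two did not stand out in it: Pramel23 was between 4.12 and 10.04 CPM in the 4 libraries, and Pramel27 did not exceed 0.32 CPM.

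Taking the 8 oogenesin-type genes at 10 CPM or more in control, the level in knockdown replicate A was a median 2.96 times the control mean, with a range of 0.875 to 5.23. It was above both controls in 7 of the 8, Oog3 being the exception, against 40.7% of all 7263 genes at that level. In replicate B the median was 1.08 times, from 0.633 to 1.4, with 3 genes above both controls and 3 below, against 32.2% and 53% of all genes. The all-gene medians were 1 in replicate A and 0.833 in replicate B. Each of the 8 was higher in knockdown replicate A than in replicate B, and 7 of the 8 were higher in Control A than in Control B. Of all 7263 genes at that level, 4485 were higher in knockdown replicate A than in B, and 3160 in Control A than in Control B. For the 22 other members at that level, which leaves out chromosome 5, the medians were 0.758 and 0.7, with 13 and 15 genes below both controls, against 37.5% and 53% of all genes.

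A list of 15 oocyte-stored transcripts outside the family was also high in Knockdown A. Its summed level was 4625 and 3927 CPM in control, 9675 CPM in knockdown replicate A and 4058 CPM in replicate B. Of these, 1 was at 0 in Control A and none in the other libraries of the table. For the 13 of them at 10 CPM or more in control, the median ratio to the control mean was 2.57 in replicate A and 0.372 in replicate B. Without Oog3, the oogenesin-type genes summed to 3786 and 2766 CPM in control and to 9637 and 3487 CPM in knockdown, so replicate A was high for both lists. In replicate B, 11 of the 13 stored transcripts and 3 of the 8 oogenesin-type genes were below both controls. The part of stored RNA in these values was not tested.

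**Figure D2:**
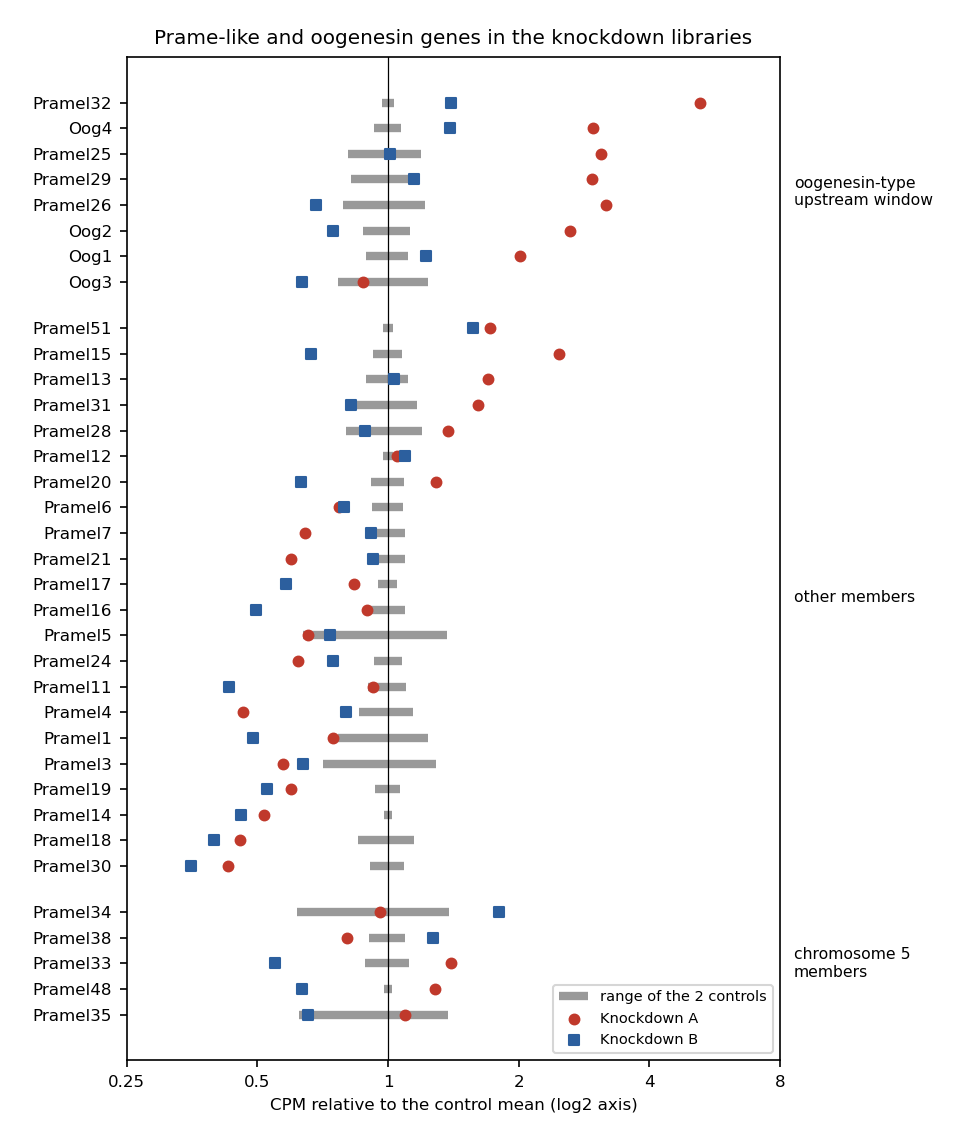
CPM of each member relative to the mean of the 2 control libraries (x axis, log2 scale) for the 35 members at 10 CPM or more in control; red circles are knockdown replicate A, blue squares replicate B, grey bars the range of the 2 controls, and members are grouped as oogenesin-type, other and chromosome 5 copies. In the oogenesin-type group 7 of 8 circles lie right of the controls (median 2.96) while the squares scatter around 1 (median 1.08), and most of the other members lie left of 1 in both libraries.

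The 2-cell-expressed copies were the list Pramel11, Pramel12, Pramel16 and Pramel19. A further gene of that list, Gm13057, does not carry a family symbol and was left out. Pramel19 was at 174 and 152.5 CPM in control and at 97.6 and 85.7 CPM in Knockdown A and B. The groups did not overlap (log2 fold change -0.83, SE 0.34, limma adjusted p = 0.859). Pramel16, the most read of them, had 685 and 565 CPM in control and 559 and 311 CPM in knockdown, also without overlap but by a small margin for replicate A. Pramel11 had 117 and 96.2 CPM in control and 98.6 and 45.8 CPM in knockdown, with replicate A between the controls. Pramel12 differed from the other 3 in being about level, at 37.8 and 39.7 CPM in control and 40.6 and 42.4 CPM in knockdown. None of the 4 passed the test, and their median log2 fold change was -0.61. It was -0.96 without Knockdown A and -0.13 without Knockdown B. Of 13 other transcripts that mark the 2-cell stage at 10 CPM or more in control, 10 were below both controls in Knockdown A and 9 in Knockdown B, against 37.5% and 53% of all genes at that level, and their part in these values was not tested. The list these come from includes Eif1ad8, a relative of the targeted gene.

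The oocyte list was set against the 2-cell list within each library, as the difference of their mean log2(CPM + 1). This difference was 1.16 in both control libraries, and 2.31 and 1.87 in knockdown replicates A and B. Both knockdown libraries were thus above both controls (2.09 ± 0.31 against 1.16 ± 0.0014, SD, n = 2). The lists were chosen with earlier results known, so no test is given. With summed CPM in place of mean logs, where Oog3 outweighs the rest, the log2 ratios were 3.37 and 2.97 in control and 3.45 and 3.59 in knockdown. The order of the groups was kept, and the gap was smaller.

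**Figure D3:**
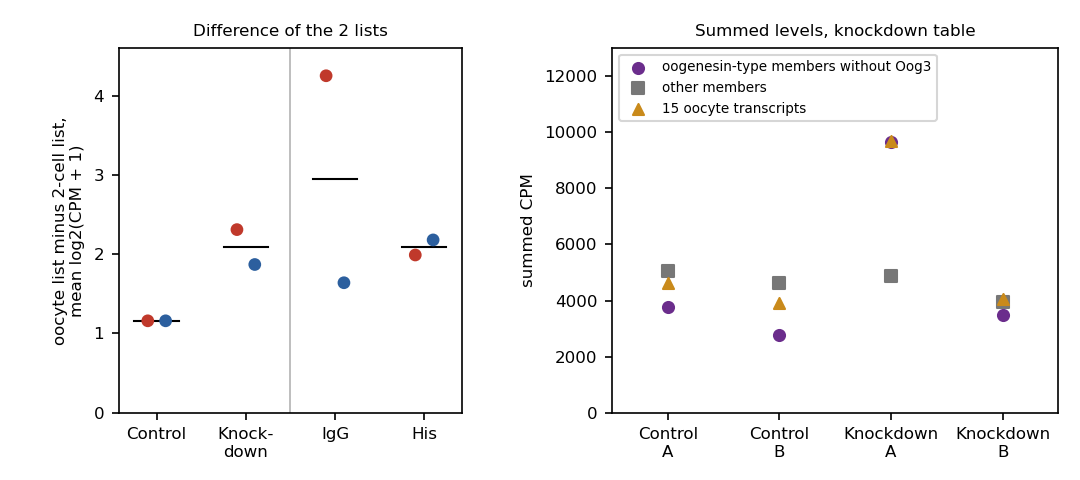
Left, the difference between the oocyte-expressed and 2-cell-expressed copies in mean log2(CPM + 1), 1 point per library (red replicate A, blue replicate B) with the group mean as a bar; the grey line separates the 2 tables, which were normalized separately. Right, summed CPM in the 4 libraries of the knockdown table: oogenesin-type members without Oog3 and the 15 oocyte transcripts reach 9637 and 9675 CPM in Knockdown A and lie between 2766 and 4625 CPM in the other 3 libraries, while the other members stay between 3942 and 5053 CPM.

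Lower values in both knockdown libraries were seen mainly among copies outside the oogenesin-type group. Pramel30 was at 183 and 152 CPM in control and at 71.6 and 58.9 CPM in knockdown, the largest difference in this direction (log2 fold change -1.35, SE 0.35, unadjusted p = 0.0046, limma adjusted p = 0.859). Pramel18 had 117 and 87.2 CPM in control and 46.6 and 40.5 CPM in knockdown (-1.20, SE 0.37). Pramel14 had 81.7 and 85.7 CPM against 43.4 and 38.3 CPM (-1.02, SE 0.36). In these 3 genes each knockdown library was below both controls and the replicates were close to each other. Pramel17, at 461 and 511 CPM in control and 406.5 and 283 CPM in knockdown, and Pramel24, at 605 and 522 CPM against 349 and 419.9 CPM, showed the same order with smaller differences. All of them missed the adjusted threshold.

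The copies known from pluripotent cells were also lower on average. Pramel6 was at 236 and 199.5 CPM in control and at 168 and 173 CPM in knockdown. Pramel7, whose protein was linked to the breakdown of the DNA methylation cofactor Uhrf1, had 334 and 404 CPM in control and 238 and 337 CPM in knockdown. Pramel4 had 87.7 and 66.03 CPM against 35.6 and 61.6 CPM, and Pramel5 had 101 and 47.2 CPM against 48.7 and 54.7 CPM. Groups did not overlap for Pramel6 and Pramel4, overlapped for the other two, and 0 of the 4 passed the test, with a median log2 fold change of -0.40 (-0.68 without Control B). The testis copies Pramel1 and Pramel3 were present at 4.95 to 15 CPM in all 4 libraries.

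Some copies outside the oogenesin-type group were higher in knockdown. Pramel51, the other chromosome 12 member besides Oog1 and without a window in the promoter table, was at 819 and 866 CPM in control and at 1448 and 1319 CPM in knockdown. Its replicates were close in both groups, which did not overlap (log2 fold change 0.71, SE 0.29, unadjusted p = 0.0401, limma adjusted p = 0.859). Pramel22 had 2.28 and 2.37 CPM in control and 11.8 and 6 CPM in knockdown (1.51, SE 0.58), and Pramel44 had 0.36 and 0.0803 CPM against 4.52 and 1.04 CPM, both at low levels. Pramel20, at 565 and 476 CPM in control and 670.5 and 329 CPM in knockdown, had one library on each side of the controls. The same held for Pramel15, at 20.9 and 18 CPM in control and 48.2 and 12.9 CPM in knockdown. Among non-members, 1 other window of the 32851 joined the oogenesin-type group, that of Gm2042, at 99.6% identity to one of its windows. Gm2042 was at 294 and 262 CPM in control and at 478 and 384 CPM in knockdown (0.63, SE 0.31, limma adjusted p = 0.859).

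The chromosome 5 copies showed no common direction. Of the 16 listed, 9 were tested, with a median log2 fold change of 0.02 (-0.48 without Knockdown A and 0.29 without Knockdown B). Pramel38 had 38.5 and 46.7 CPM in control and 34.2 and 53.98 CPM in knockdown, and Pramel34 had 27 and 60.7 CPM against 42.1 and 78.96 CPM. Knockdown replicate A held 12 of these copies at 1 CPM or more and none at 0, and replicate B held 8 and 6 at 0. Of all 17866 genes listed, replicate A held 13354 at 1 CPM or more and 765 at 0, and replicate B 12478 and 1735. Replicate A was the deeper library (27902514 against 18173916 reads), and the part of depth in these counts was not tested. Upstream windows of Pramel33 and Pramel35 were 99.6% identical, those of Pramel46 and Pramel49 99.2%, so reads of such pairs may be hard to assign.

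Which members passed depended on the knockdown library kept. Without Knockdown A, 9 of 39 tested members passed in limma with Benjamini-Hochberg adjustment. Pramel51 was higher and Pramel11, Pramel14, Pramel16, Pramel17, Pramel18, Pramel19, Pramel20 and Pramel30 were lower, in a setting where 6.1% of genes were called higher and 9% lower. Without Knockdown B, 9 of 40 passed. Oog1, Oog2, Oog4, Pramel25, Pramel26, Pramel29, Pramel32 and Pramel51 were higher and Pramel30 was lower, where 2.32% of genes were called higher and 0.913% lower. Pramel51 and Pramel30 were the members called in both settings, with the same direction. With 1 library left, it is assumed to vary like the controls. Without either control library, 0 members passed.

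The immunoprecipitation compared RNA recovered with the anti-His antibody with RNA recovered with IgG. In limma with Benjamini-Hochberg adjustment, 35.7% of 11232 tested genes were called higher and 0.917% lower, and both His libraries lay above both IgG libraries in 54.1% and below both in 9.06%. Of the 49 members 31 were tested. All 31 had a positive log2 fold change, as had 78.5% of all genes tested, 16 were called higher and 0 lower, and 28 had both His libraries above both IgG libraries and 0 below. At an unadjusted p under 0.05 there were 18 members, beside 44.6% of all genes tested. Of the 31, 12 were below 1 CPM in both IgG libraries and passed the filter through His alone, and these supplied 11 of the 16 calls, so the count is a description only. The median log2 fold change was 3.28 in the tested members and 2.01 over all genes tested. With genes at 0 in both IgG libraries set to the bound that 3 reads per library give, these became 3.63 and 2.14. Input and total RNA of these embryos were not analysed here, so recovery could not be set against the RNA present.

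The family summed to 5272 and 5335 CPM with His replicates A and B, and to 492 and 1405 CPM with IgG replicates A and B. At 1 CPM or more, 34 and 37 of 49 members were present in His against 14 and 16 in IgG, where 31 and 27 were at 0. Of all 19390 genes listed, 12246 and 12270 were at 1 CPM or more in His and 5148 and 5564 in IgG. In IgG 12574 and 12217 of all genes were at 0. The His libraries were also deeper, with floors of 0.359 and 0.379 CPM against 0.506 and 0.641 CPM, and the part of depth in these counts was not tested. In the same libraries the 15 oocyte-stored transcripts summed to 14492 and 14670 CPM with His and to 6847 and 6944 CPM with IgG.

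Among the oocyte-expressed copies, Oog1 alone passed in limma. It was at 6.75 and 6.84 CPM with IgG and at 181 and 206 CPM with His. Both replicates of each group were close, and the log2 fold change was 4.64 (SE 0.83, limma adjusted p = 0.0266). Oog3, again the most read member, was at 53.8 and 510 CPM with IgG and at 2028 and 2108 CPM with His. The groups were apart, but the IgG libraries differed widely, and the test was not passed (3.63, SE 1.25, limma adjusted p = 0.119), while DESeq2 called it (adjusted p = 0.00663). Oog2 had 23.6 and 0.428 CPM with IgG and 138 and 109 CPM with His, and Oog4 had 4.73 and 50.4 CPM against 65.3 and 89.4 CPM. Pramel13 was nearest between the groups, at 175 and 117 CPM with IgG and 233 and 275 CPM with His (0.82, SE 0.51, limma adjusted p = 0.347). Of all genes tested, 35.7% were called higher, against 1 of these 5.

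Of the other oogenesin-type genes tested in this comparison, Pramel25 and Pramel26 passed and Pramel29 and Pramel32 did not. With Oog1, 3 of the 8 tested genes of the group were called higher, beside 35.7% of all genes tested. Pramel25 was unusual in being well covered in IgG, at 189.7 and 195 CPM, and it had 539.6 and 569 CPM with His (log2 fold change 1.52, SE 0.30, limma adjusted p = 0.034). Its limma adjusted p was 0.181 with median rescaling, 0.0507 with a pseudocount of 5 and 0.0537 with no filter. Pramel26 had 3.21 and 0.855 CPM with IgG and 128 and 89.4 CPM with His (5.27, SE 0.89, limma adjusted p = 0.0234). Pramel29 and Pramel32 differed by large amounts on average but not beyond the IgG spread. Pramel29 was at 0.844 and 108 CPM with IgG and 507.5 and 527 CPM with His, and Pramel32 at 2.02 and 92.8 CPM against 335 and 349 CPM, with limma adjusted p = 0.208 and 0.218. All 8 tested oogenesin-type genes had both His libraries above both IgG libraries, against 54.1% of all genes tested.

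The 2-cell-expressed copies gave 2 calls of 4, near the 35.7% of all genes called higher. Pramel19, which passed the filter through His alone, was at 0 in both IgG libraries and at 28.2 and 29.9 CPM with His, at least 50.7-fold higher (limma adjusted p = 0.00997). Pramel11 was at 1.35 and 0.428 CPM with IgG and at 64.2 and 72.4 CPM with His (log2 fold change 5.24, SE 0.68, limma adjusted p = 0.0134). Pramel16 had 0.338 and 84.9 CPM with IgG and 149.8 and 185 CPM with His, and did not pass (limma adjusted p = 0.341). Pramel12 overlapped, at 0 and 92.3 CPM with IgG and 45.4 and 24.8 CPM with His, and its direction turned negative in edgeR and DESeq2 and without IgG A. The difference between the oocyte and 2-cell lists in mean log2(CPM + 1) was 1.99 and 2.18 in His and 4.25 and 1.64 in IgG, so the His values lay within the IgG range. With a pseudocount of 0.1 they lay below it, at 2.01 and 2.2 in His against 6.39 and 2.51 in IgG.

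**Figure D4:**
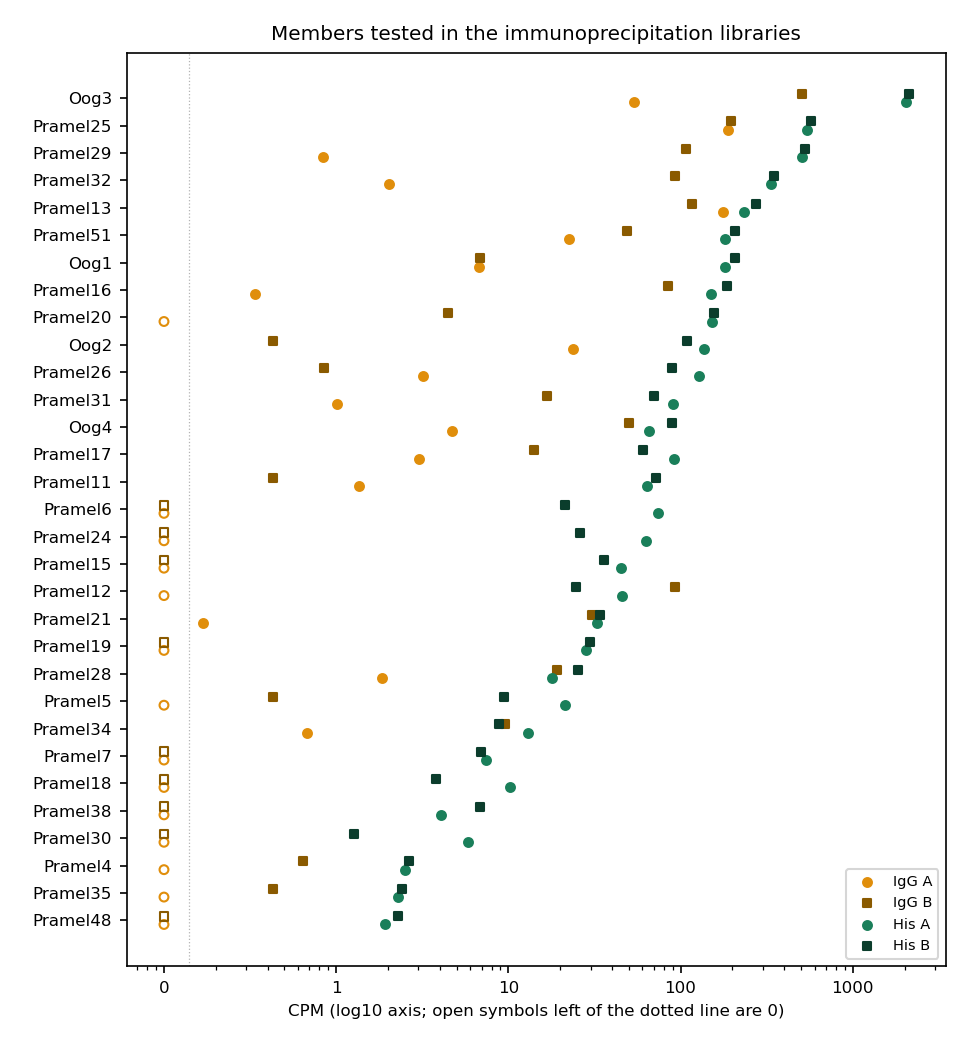
CPM (log10 axis) of the 31 tested members in the IgG libraries (orange and brown) and the His libraries (light and dark green), ordered by the His mean; circles are replicate A, squares replicate B, and open symbols left of the dotted line are 0. The His replicates lie close together for most members, with Oog3 highest at 2028 and 2108 CPM, while the IgG replicates of Pramel29, Pramel32 and Pramel16 lie far apart.

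The 4 pluripotent-cell copies were below 1 CPM in both IgG libraries and entered the test through His alone. Their calls, 4 of 4 beside 35.7% of all genes tested, are therefore a description. Pramel6 was at 0 in both IgG libraries and at 73.8 and 21.4 CPM with His, at least 82.9-fold higher (limma adjusted p = 0.0178). Pramel7 was at 0 in both and at 7.41 and 6.95 CPM with His, at least 12.5-fold higher (limma adjusted p = 0.00997). Pramel5, with 0 and 0.428 CPM with IgG, had 21.4 and 9.47 CPM with His, and Pramel4, with 0 and 0.641 CPM, had 2.51 and 2.65 CPM. Pramel4 passed at limma adjusted p = 0.0451 and lost the call in most of the alternatives, among them a pseudocount of 0.1, no filter, quantile normalization, edgeR, DESeq2 and the omission of either IgG library. It was not tested at a mean of 5 CPM. The remaining calls were copies without a stage list. All of them but Pramel20 were also below 1 CPM in both IgG libraries and passed the filter through His alone, so these calls too are a description. Pramel24 was at 0 in IgG and at 62.9 and 26.1 CPM with His (at least 77.6-fold higher), and Pramel15 at 0 and at 45.1 and 35.7 CPM (at least 70.4-fold). Pramel20 had 0 and 4.49 CPM with IgG and 153 and 155.5 CPM with His (log2 fold change 6.05, SE 1.21, limma adjusted p = 0.035). This was the largest fitted difference of the family at a pseudocount of 1. At a pseudocount of 0.1, Pramel24 (8.67) and others were above Pramel20 (7.83). Pramel18, Pramel38 and Pramel48, at 0 in IgG, were at least 12.3-fold, 9.49-fold and 3.65-fold higher, and Pramel35 was at 0 and 0.428 CPM with IgG and at 2.27 and 2.4 CPM with His.

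Members that limma did not call included well-read genes. Pramel51 had 22.4 and 49.2 CPM with IgG and 182 and 206 CPM with His (log2 fold change 2.50, SE 0.82, limma adjusted p = 0.108). Pramel17 had 3.04 and 14.1 CPM with IgG and 91.7 and 60.9 CPM with His, and Pramel31 had 1.01 and 16.7 CPM against 90.7 and 70.2 CPM. These did not overlap, whereas Pramel12, Pramel28 and Pramel34 were the 3 tested members whose groups did. Pramel30, at 0 with IgG, had 5.86 and 1.26 CPM with His, at least 6.21-fold higher, and missed the threshold (limma adjusted p = 0.104). DESeq2 did call Pramel51, Pramel17 and Pramel30 (adjusted p = 0.00181, 0.00989 and 0.00504). Of the 18 untested members, 4 were at 0 in all 4 libraries (Pramel3, Pramel22, Pramel27 and Pramel43), and Pramel1 had reads in IgG A alone, at 1.35 CPM.

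These calls rested on the fit across all genes. With edgeR on the recovered reads 0 members and 0 genes passed (15 members and 4592 genes at an unadjusted p under 0.05), with quantile normalization 0 members (13 unadjusted) and 0 genes (2339 unadjusted), and with DESeq2 19 members were higher, where 42.4% of genes were. Of the 16 members called in limma, Pramel4, Pramel20 and Pramel35 lost the call with a pseudocount of 0.1, Pramel18 and Pramel25 with one of 5, and all 5 of these with no filter. With quantile normalization the all-gene median went from 2.01 to -0.08 and the members' median to 2.07, so the members' distance from the all-gene median was 1.27 in the main analysis and 2.15 there. Under it 7 of the 31 tested members were lower in His: Pramel4, Pramel28, Pramel30 and the chromosome 5 copies Pramel34, Pramel35, Pramel38 and Pramel48. Without IgG A, 22 members were higher and Pramel12 lower, where 51.1% of genes were called higher and 18% lower, and the members' median (2.19) was close to that of all genes (2.17). Without IgG B, 26 were higher, where 55.3% of genes were. Without His A or His B, 0 passed, where 0.0593% and 0.0592% of genes were called higher and 0.0296% in each case lower.

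The partners of Prame-like and oogenesin proteins were followed as a list of 18 genes: cullin 2 and its ring and adaptor subunits, other cullin 2 substrate receptors, Uhrf1, Dnmt1, and the Ral pathway. In the knockdown comparison 17 were tested and 0 passed in either direction, beside the 0% over all genes. Lrr1, a leucine-rich repeat receptor of cullin 2, had the smallest p, at 134 and 127 CPM in control and 229.8 and 231 CPM in knockdown (log2 fold change 0.81, SE 0.32, limma adjusted p = 0.859). Dnmt1, the maintenance DNA methyltransferase, had 60.7 and 56.1 CPM in control and 78.6 and 18.4 CPM in knockdown, and Uhrf1 had 79.3 and 50.9 CPM against 99.02 and 36.1 CPM. Both were high in replicate A and low in replicate B. In the immunoprecipitation 16 were tested, of which 4 were called higher in His (Rnf7, Appbp2, Lrr1 and Zyg11b) and 0 lower, beside 35.7% and 0.917% over all genes. Uhrf1 was at 1263 and 1060 CPM with IgG and 1035 and 934 CPM with His, and Rbx1, the ring subunit, at 1430 and 2236 CPM against 960.4 and 921.5 CPM, both without passing.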

How the data were processed

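RNA from mouse 2-cell embryos was measured in 12 labelled samples, of which 8 libraries in 4 groups of 2 entered the comparisons. The deposited values are CPM, reads per gene scaled by the authors to a common library total; the submitters' processing notes name Trim Galore 0.6.7, FastQC, HISAT2 2.2.1, featureCounts 2.0.1, edgeR and GRCm39, without roles. Per the labels' protocols, cDNA was amplified by PCR with a Smart-seq2 kit without molecular identifiers. Values were whole multiples of 1 read in 100.0% of cases (tolerance 0.01 reads), so reads and totals were recovered. The 2 tables were normalized separately and were tested apart. The names of 4 value columns fit both input and total RNA, so they were not used, and the planned comparisons with input and total RNA were not run.

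Genes that reached 1 CPM in 2 or more of the libraries compared entered the test, which used log2(CPM + 1), a pseudocount of 1, and limma 3.58.1 in R 4.3.3 (eBayes with trend, two-sided) and Benjamini-Hochberg adjustment over all genes, at 0.05. Alternatives were pseudocounts of 0.1 and 5, a mean of at least 5 CPM, no filter, median rescaling, quantile normalization, the replicate letter as a block, edgeR 4.0.16 and DESeq2 1.42.0 on recovered reads, and leaving out each library. On simulated knockdown data at the observed dispersion (0.272), limma recovered 10% of genes changed by 2 on the log2 scale and 94% of those changed by 4, and in simulated immunoprecipitation data (dispersion 1.55) 0% of either. The simulations gave all genes and both groups a common dispersion, whereas the IgG replicates spread more than the His ones. In the data limma called 4111 of 11232 genes, so the 0% is not a recovery rate for the immunoprecipitation. Upstream windows and positions are RefSeq's on GRCm38.p6, and identities were computed with edlib 1.3.9; gene positions on GRCm39 were not used here.

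The members and lists were chosen with earlier results of these data known. Named members were the 25 with the highest mean CPM in the knockdown table, all members of the stage lists, and called members among the 10 largest changes in a comparison; others named, such as Pramel22, Pramel44 and Gm2042, were chosen after their values were seen.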

Additional observations from a re-analysis of the deposited data

How the results depend on the processing

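In the knockdown comparison the count of genes called was 0 and became 2 with a replicate block and 15 with DESeq2; members called stayed at 0 in both. The replicate letters only share a name: deviations of same-letter libraries correlated at 0.146 in the knockdown table and -0.0138 in the immunoprecipitation table. Leaving out each replicate gave 0 to 1894 genes (1894 without Knockdown A, 414 without Knockdown B), 0 to 9 members, and member medians from -0.342 to 0.0906. Single-library omissions reversed the sign of 16 tested members, 7 of them among the 30 named ones, whose fold changes ran from -0.96 to 0.125 for Pramel5 (positive without Control A), -0.143 to 0.478 for Pramel28 (-0.118 without Control B), -0.262 to 0.708 for Pramel31 (-0.0173 without Control B), -0.406 to 1.4 for Oog2, -0.555 to 1.27 for Pramel15, -0.518 to 1.7 for Pramel26 (the last 5 lowest without Knockdown A) and -0.657 to 0.37 for Pramel20 (positive without Knockdown B); the other alternatives reversed none of the 30 named members in this comparison, and Pramel23, Pramel38 and Pramel41 among the rest. For His against IgG, 4111 genes and 16 members became 2356 and 10 with a mean of at least 5 CPM, where fewer genes were tested, and 0 and 0 with quantile normalization or edgeR. The replicate block gave 10 of 31 members, where 34.3% of genes were called higher; by it Oog3 passed (adjusted p = 0.0436 in limma) and Oog1 (0.146), Pramel4, Pramel11, Pramel20, Pramel25, Pramel26 and Pramel35 did not. Leaving out each replicate gave 6 (without His A or His B) to 7679 genes and 0 to 26 members, and member medians from 2.19 to 4.23. The member median was 4.77 with a pseudocount of 0.1, 2.36 with 5, 3.86 with the filter at a mean of 5 CPM, 1.98 with no filter and 2.07 with quantile normalization. Quantile normalization reversed 7 of 31 tested members, Pramel4 (-1.01), Pramel28 (-1.37), Pramel30 (-0.361), Pramel34, Pramel35, Pramel38 and Pramel48, and Pramel12 was -0.295 with edgeR, -0.494 with DESeq2 and -1.43 to 5.11 with single libraries left out (-1.43 without IgG A). The oocyte list minus the 2-cell list became 3.17 in control, 3.52 in knockdown and 3.18 in His with summed CPM, and in control 1.16 and 1.15 with pseudocounts of 0.1 and 5, past its very small spread. Where no construction of the alternative is named, the cause was not tested. The low depth and the wide spread of the IgG libraries limit the second comparison.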

Other observations

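Values of the family outside the comparisons of stage lists were scattered. Pramel21 was at 89.9 and 74.6 CPM in control and at 49.2 and 76.04 CPM in Knockdown A and B. Pramel47, a chromosome 5 copy, was at 13 CPM in Control A and 30.5 CPM in Knockdown A, but at 2.29 and 2.31 CPM in the B libraries of both groups. Pramel28, a pseudogene in RefSeq, was read at 89.1 and 59.7 CPM in control, 102 and 65.97 CPM in knockdown, and 17.8 and 25.4 CPM in His. Pramel33 was read at 18 to 45.8 CPM in the knockdown table and was at 0 in both IgG libraries, and Pramel42 did not exceed 4.23 CPM in any library of the knockdown table.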
